A study of Homo sapiens with 22 samples.

Results

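Knockdown of the long non-coding RNA CASC15-004 was compared with a control shRNA in SH-SY5Y cells after 7 days of retinoic acid, in 4 of the 22 libraries of the series. SH-SY5Y is a human neuroblastoma line, and retinoic acid is used to move it towards a neuron-like state. The members were chosen by title: 2 libraries with shRNAs against CASC15-004, sh1 and sh2, and 2 with a scrambled shRNA that has no mammalian target, all at day 7. All cells carried a lentiviral shRNA and were selected with puromycin, in the control as in the knockdown. Retinoic acid is given in the labels as 10 mM for 7 days, and serum at day 7 as 1% in one protocol and 10% in another. Both knockdown libraries are of batch 2, while the controls are 1 library of batch 1 and 1 of batch 2. Each shRNA therefore has 1 library, and only the batch 2 control shares its batch. For context, the day 0 monolayers (3 control and 2 CASC15-004 libraries, in serum without retinoic acid), the 3 CASC15-003 libraries of day 7 and the spheres (1 control and 2 CASC15-004 libraries) are given beside the 4 libraries. The labels do not say that libraries came from separate cultures, so p-values reflect the scatter among the libraries at hand, which may be technical.

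CASC15 is a long non-coding RNA gene of a neuroblastoma risk locus on chromosome 6 and gives several transcripts. Much of what follows concerns targets of NF-kB, a family of transcription factors. Its dimers are held in the cytoplasm by inhibitor proteins and enter the nucleus when cytokines such as TNF lead to the breakdown of those inhibitors. NF-kB then switches on adhesion molecules, chemokines, acute phase proteins and its own inhibitors, which close a feedback loop.

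The shRNA target sequences show which CASC15 transcripts the knockdown can reach. Both CASC15-004 sequences of the labels, 21 bases each, are given 5′ to 3′ in the sense direction.
CASC15-004 sh1: caggctgttcccagggattta
CASC15-004 sh2: taggaataccttacatccaat
Among 206694 reference transcripts (GENCODE release 29), searched for exact matches only, each sequence matched only CASC15, in the sense direction. Partial matches to other transcripts were not searched for. The sh1 target lies at chr6:22146977-22146997 (GRCh38, plus strand) and the sh2 target at chr6:22146898-22146918, 79 bases upstream. Both lie in exon 1 of the transcripts CASC15-204 and CASC15-202, which are 2 of the 8 CASC15 transcripts annotated. The CASC15-003 shRNAs matched 2 other CASC15 transcripts and neither of these.

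CASC15 itself, read over all its transcripts, was lower with both shRNAs. Its RPKM, reads scaled to gene length and to the assigned reads of the library, was 3.33 in the batch 1 control, 3.26 in the batch 2 control, 1.31 with sh1 and 1.48 with sh2. The groups did not overlap. On the log2(RPKM + 0.5) scale, used for all differences, knockdown minus control was -1.01 (SE 0.29), which did not pass limma's test (adjusted p = 0.520, and 0.133 with batch as a block). At day 0 the CASC15-004 libraries held 1.16 and 1.14 RPKM against 1.31 to 2.38 in 3 controls. Genes on the opposite strand overlap CASC15, and whether reads were counted by strand is not given in the sources used here. RPKM of the whole gene cannot show how far the matched transcripts alone were reduced.

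The 4 libraries held 15.4 M (batch 1 control), 32.4 M (batch 2 control), 37.9 M (sh1) and 28.3 M (sh2) assigned reads. The batch 1 libraries stand apart: 166 genes at RPKM 1 or above in all 11 other monolayer libraries are listed at 0 in all 4 batch 1 libraries. Of 81 such genes from TRIM27 to KIFC1 on chromosome 6, the stretch that holds the HLA genes, 76 are at 0 in batch 1. Conversely, 311 genes, 299 of them processed pseudogenes, are at RPKM 1 or above in batch 1 and listed at 0 elsewhere. HLA genes and their neighbours can therefore be read only against the batch 2 control. Neuroblast markers were present in all 4 libraries: HAND2 had 175 and 157 RPKM in the batch 1 and batch 2 controls, 145 with sh1 and 261 with sh2, and GATA3 44 and 35.9 in controls, 14.4 with sh1 and 41.8 with sh2. TH, the first enzyme of catecholamine synthesis, was at or below 0.952 RPKM in all 4 libraries.

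With both controls and no batch term, no gene of 19461 tested passed an adjusted p of 0.05 (limma with a mean-variance trend, Benjamini-Hochberg), and 1564 had an unadjusted p under 0.05, 508 higher (2.61%) and 1056 lower (5.43%). Against the batch 2 control alone the call count was also 0, with 318 genes higher (1.63%) and 642 lower (3.3%) at an unadjusted p under 0.05. The test on recovered reads with limma's voom also called 0. With batch as a block, 44 genes passed (0.226% of those tested), 34 higher (0.175%) and 10 lower (0.0514%) with the knockdown. This count rests on single libraries: with the block it was 6 without the batch 1 control, 2 without the batch 2 control, 195 without sh1 and 164 without sh2. With voom and the block it was 6. In a fit of the batch 2 libraries alone 31 genes passed (0.159%), 5 higher (0.0257%) and 26 lower (0.134%), and 4 of them were among the 44. All 34 higher genes are protein-coding, and in all 34 both knockdown libraries lay above both controls (10.8% of all genes). In the 10 lower genes both lay below both controls (22.1% of all genes). For 31 of the 34 the nearest knockdown and control values were at least 1 apart on the log2 scale, which held for 113 of all genes (0.581%), and for 9 of the 10 lower genes (0.771%). Against the batch 2 control alone this held for 33 of the 34 (1.06%) and for 10 of the 10 (2.03%). The 44 genes were called on these same libraries, so these day 7 counts describe the calls and are no separate support. Among those named below, BCL2A1, UBD and CXCL11 reached RPKM 1, the minimum for a test, only in the 2 knockdown libraries of day 7. They entered the test only through the group where they are high. At day 0, against all 3 controls, it held for 0 of the 34 (0.0308%) and 1 of the 10 (0.0719%). The batch 3 control was itself more than 1 higher than both other day 0 controls in 24 of the 34. The count of 0 therefore cannot show that these genes were unchanged at day 0. Against the controls outside batch 3 alone, sh1 at day 0 was higher by at least 1 in 11 of the 34 and sh2 in 3. Among all 19461 genes this held for 226 with sh1 and 93 with sh2. Below, "called" means among these 44 genes, that is, past the threshold with the batch block over all monolayer libraries, unless another comparison is named. The median difference over all genes was -0.15 without the block, -0.09 with it, -0.04 after median-ratio scaling and 0.10 after quantile scaling. The direction of the 28 called genes named below held in all these settings, which follows largely from how they were chosen. Each was called in 2 to 12 settings only, among the fit without the block and its 26 alternatives.

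**Figure D1:**
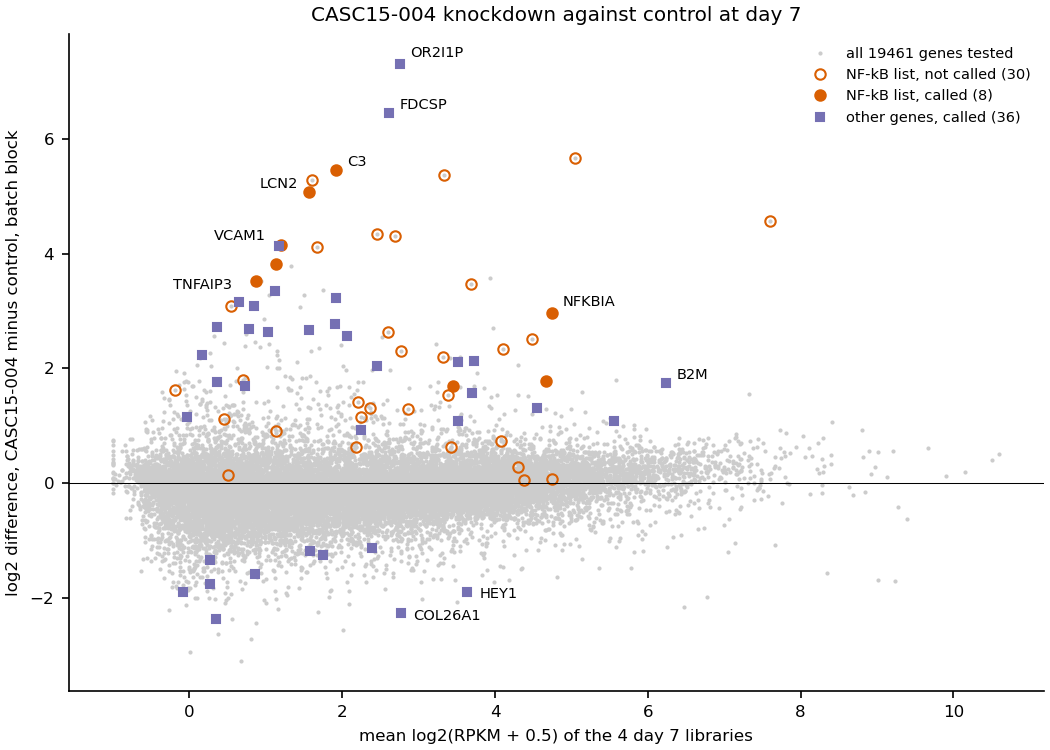
Each point is a gene: the horizontal axis is its mean log2(RPKM + 0.5) over the 4 day 7 libraries and the vertical axis its log2 difference, CASC15-004 minus control, with batch as a block. Filled orange points are the 8 called genes of the NF-kB list, open orange points its 30 other measured genes, and squares the 36 other called genes, with 34 called genes above 0 and 10 below.

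VCAM1, an adhesion molecule that binds leukocyte integrins, was almost silent in the controls and well expressed in the knockdowns. Its RPKM was 0 in the batch 1 control, 0.0816 in the batch 2 control, 10.6 with sh1 and 8.01 with sh2. These values rest on 0, 16, 2437 and 1372 reads. Both knockdown libraries lay far above both controls, and the log2 difference was 4.16 (SE 0.20, adjusted p = 1.42e-05 with the block, 0.188 without). C3, the central complement protein, had RPKM 0, 0.115, 38.1 and 16.9 in the same order and rose by 5.45 (SE 0.61, adjusted p = 0.0110 with the block). LCN2, a secreted iron-siderophore carrier of the acute phase, had 0.0316, 0, 41.0 and 6.56 RPKM. Its difference was 5.08 (SE 0.70, adjusted p = 0.0300 with the block), and its level was far higher with sh1 than with sh2. TNFAIP3, the ubiquitin-editing enzyme A20 that shuts off NF-kB signalling, had 0.0389, 0.0799, 6.95 and 4.35 RPKM. It rose by 3.53 (SE 0.53, adjusted p = 0.0345 with the block). For all 4 genes every knockdown value lay above every control value. Over the alternatives the adjusted p ran from 1.05e-05 to 0.872 for VCAM1, 0.00794 to 0.966 for C3, 0.000824 to 0.956 for LCN2 and 0.0295 to 0.956 for TNFAIP3.

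**Figure D2:**
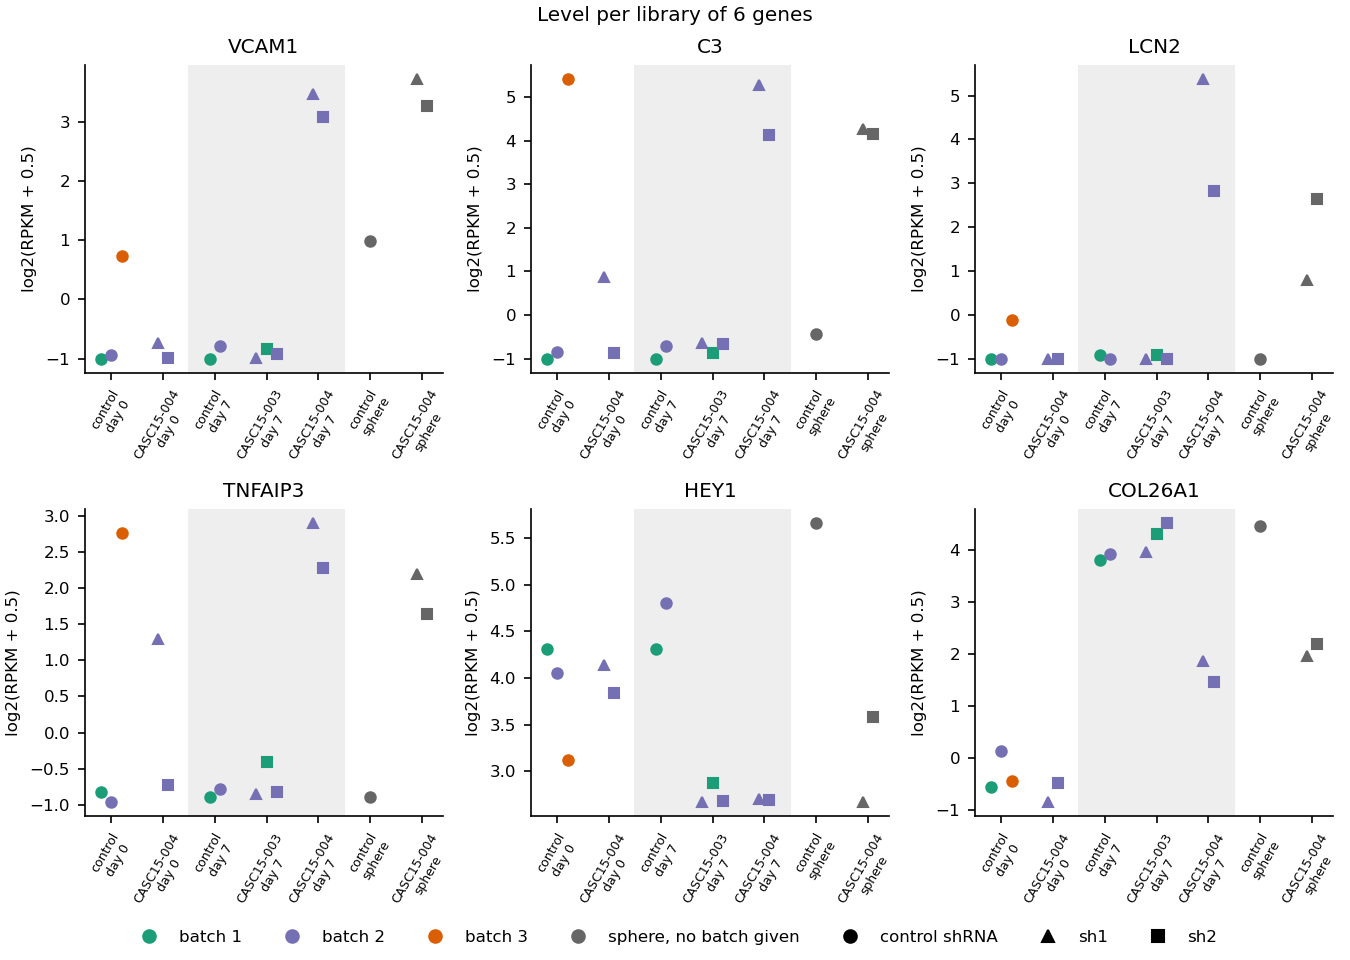
Levels, as log2(RPKM + 0.5), of VCAM1, C3, LCN2, TNFAIP3, HEY1 and COL26A1 in single libraries, grouped by shRNA and culture; colour gives the batch, the symbol the shRNA, and grey shading the day 7 libraries. VCAM1 reached 10.6 and 8.01 RPKM in the day 7 knockdowns against at most 0.0816 in the day 7 controls, while HEY1 was between 5.86 and 6.85 RPKM in all 5 knockdown libraries of day 7.

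The promoters of 4 of the genes called higher are shown because they carry the NF-kB consensus, a motif of 10 bases searched on both strands. Each is the 250 bases before the annotated start, 5′ to 3′ on the gene's strand, from RefSeq (GRCh38.p14), with matches in capitals. The intervals are chr1:100719492-100719741 (plus strand) for VCAM1, chr6:137867009-137867258 (plus) for TNFAIP3, chr14:35404750-35404999 (minus) for NFKBIA and chr9:128149203-128149452 (plus) for LCN2.
VCAM1: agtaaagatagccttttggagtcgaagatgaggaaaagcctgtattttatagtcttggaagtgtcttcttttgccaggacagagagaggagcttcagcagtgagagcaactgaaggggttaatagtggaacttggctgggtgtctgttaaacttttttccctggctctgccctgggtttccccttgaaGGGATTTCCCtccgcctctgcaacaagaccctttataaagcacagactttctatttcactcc
TNFAIP3: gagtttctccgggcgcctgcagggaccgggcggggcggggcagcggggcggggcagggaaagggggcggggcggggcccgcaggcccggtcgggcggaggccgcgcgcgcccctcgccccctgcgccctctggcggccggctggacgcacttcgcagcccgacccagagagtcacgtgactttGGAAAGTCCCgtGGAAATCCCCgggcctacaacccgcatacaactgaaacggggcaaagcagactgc
NFKBIA: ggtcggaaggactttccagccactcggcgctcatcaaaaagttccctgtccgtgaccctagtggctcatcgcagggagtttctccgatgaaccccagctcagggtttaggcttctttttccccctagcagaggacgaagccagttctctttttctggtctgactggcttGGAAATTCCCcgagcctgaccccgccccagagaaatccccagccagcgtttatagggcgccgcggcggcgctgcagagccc
LCN2: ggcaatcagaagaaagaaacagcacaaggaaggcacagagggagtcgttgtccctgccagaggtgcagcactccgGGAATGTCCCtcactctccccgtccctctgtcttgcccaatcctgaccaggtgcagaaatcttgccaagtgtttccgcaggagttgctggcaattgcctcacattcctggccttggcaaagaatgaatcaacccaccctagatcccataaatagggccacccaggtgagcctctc
The matches begin 62 bases before the start in VCAM1, 67 and 55 in TNFAIP3, 81 in NFKBIA and 175 in LCN2. A promoter in the reference table spans 250 bases before and 50 after the start. Of the 34 genes called higher, 25 had a promoter in the table, and 15 of these held a match. The 34 genes were called on these data and 8 of them are on the NF-kB list. This share therefore describes the called genes and is no independent support. A match was found for 11.8% of all 27305 genes in the promoter table and for 15.7% of the tested genes that had one. A match describes the letters of a window and not a bound site.

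The NF-kB genes were described from a list of 44 genes ordered by role, of which 38 were measured. Of the 38, 8 were called higher and 0 lower, where 0.175% of all genes were called higher. In 25 of the 38 both knockdown values exceeded both control values by at least 1, which held for 0.581% of all genes. The list was written with earlier results of these data known, and its members VCAM1, C3, LCN2 and TNFAIP3 were preset marker genes. These counts therefore describe the list and are no independent support. The median difference of the list was 2.09, against -0.15 over all genes, and it stayed between 1.45 and 2.57 in 11 alternatives. Each shRNA alone against the batch 2 control gave a median of 2.63 for sh1 and 1.59 for sh2.

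Among the 5 subunits the precursors NFKB1 and NFKB2 and the partner RELB had higher values with both shRNAs, and RELA and REL overlapped between the groups. NFKB1, the precursor of p50, had 5.65 and 5.24 RPKM in the batch 1 and batch 2 controls and 23.8 and 16 with sh1 and sh2, and was called (log2 difference 1.70, SE 0.24, adjusted p = 0.0300 with the block). NFKB2 had 10.8 and 8.21 RPKM in controls and 62.8 and 40.7 in knockdowns, and RELB 5.43 and 2.85 against 47.1 and 28.7. Neither of these passed (adjusted p = 0.116 and 0.103 with the block), although their groups lay over 1 log2 unit apart. RELA, the main activating subunit, had 29.2 and 23.8 RPKM in controls and 29.1 and 23.6 in knockdowns, so its values overlapped. REL was at 0.942 and 0.861 against 0.869 and 1.01.

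Of the 11 inhibitors and feedback genes measured, 6 lay at least 1 higher in both knockdown libraries, and 3 were called, TNFAIP3, NFKBIA and TNIP1. NFKBIA, the inhibitor IkB-alpha, had 12 and 8.21 RPKM in controls and 73.5 and 65.2 in knockdowns (log2 difference 2.97, SE 0.33, adjusted p = 0.0110 with the block). TNIP1, a partner of A20, had 16.4 and 11.8 against 56.3 and 35.4. BIRC3, a ubiquitin ligase of the TNF receptor complex, had 0.148 and 0.375 against 16.9 and 9.92 and was not called (adjusted p = 0.0690 with the block). Of the called genes outside the list, TRAF3, which restrains the non-canonical NF-kB arm, had 9.17 and 6.57 RPKM in controls and 16.2 and 14.5 in knockdowns. ZC3H12A, an RNase that degrades cytokine transcripts, had 0.919 and 0.535 against 9.64 and 4.56. Both were chosen after their values were seen.

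Among the 11 secreted targets measured, 9 lay at least 1 apart between the groups, and C3 and LCN2 were called. CCL2, a monocyte chemokine, had 57.5 and 34.4 RPKM in the batch 1 and batch 2 controls, 863 with sh1 and 796 with sh2. IL32 had 1.16 and 1.21 against 62.2 and 56.7. Neither passed the test (adjusted p = 0.266 and 0.103 with the block). The chemokine CXCL10 had 0 reads in both controls and 1411 and 335 reads in the knockdowns, at least 390-fold higher in mean RPKM than 3 reads over both controls would give. Likewise CXCL2 was at least 90.3-fold and CCL20 at least 23.3-fold higher, each with 0 control reads. With these 3 genes at their bounds the median of the list was 2.29. CXCL10 overlaps ART3 on the opposite strand. ICAM1, the other adhesion target measured, had 6.29 and 4.31 RPKM in controls, 408 with sh1 and 90.1 with sh2, and was not called (adjusted p = 0.133 with the block). BCL2A1, a BCL2-family survival protein, had 0.120 and 0.0567 against 15.8 and 3.67 and was called (log2 difference 3.82, SE 0.51, adjusted p = 0.0292 with the block).

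These genes were not silent in every other library without the knockdown, and those levels stand beside the day 7 result. The mean log2(RPKM + 0.5) of the 38 NF-kB genes was 1.60 and 1.47 in the day 7 controls and 4.35 and 3.55 in the day 7 knockdowns. At day 0 it was 0.99, 0.98 and 3.39 in the controls of batches 1, 2 and 3, and 2.49 with sh1 and 1.16 with sh2 of CASC15-004. The batch 3 control at day 0 thus lay near the level of the day 7 knockdowns, as did the CASC15-003 sh1 library of batch 3 at 3.94. For example, TNFAIP3 was at 6.25 RPKM and C3 at 42.1 in that control, whereas BCL2A1 was at 0 there and VCAM1 at 1.16. Of the 34 genes called higher, 24 were more than 1 higher in the batch 3 control than in both other day 0 controls, which held for 3.64% of all genes. What sets the batch 3 libraries apart was not tested. Without the 2 batch 3 libraries the block fit called 43 genes, of which 35 were among the 44, and the fit without the block called 10, of which 9 were among them. The 3 CASC15-003 libraries of day 7 stood at 1.77, 2.15 and 1.87, slightly above the day 7 controls. Single genes varied: ICAM1 was at 15.3, 86.3 and 20.1 RPKM in them, while VCAM1 was at or below 0.0602.

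**Figure D3:**
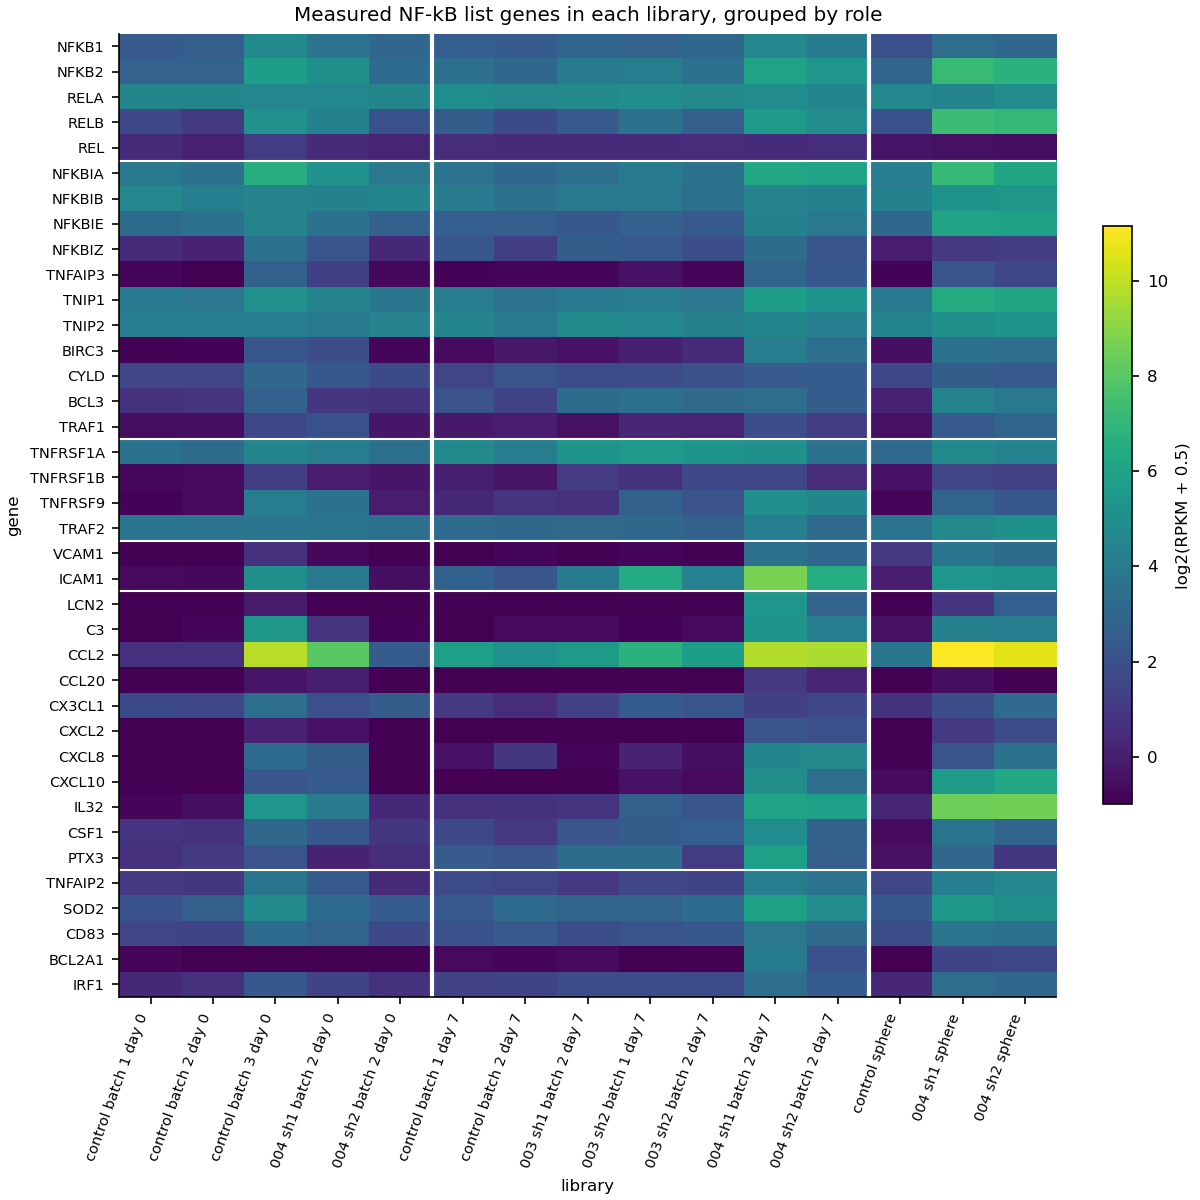
Level, as log2(RPKM + 0.5) in colour, of the 38 measured NF-kB list genes (rows, grouped by role with subunits on top and other targets at the bottom) in 15 libraries (columns: day 0, day 7 and spheres, parted by white lines). The day 7 CASC15-004 columns and both CASC15-004 spheres are brighter than their controls in many rows; the batch 3 day 0 control is bright in many of these (C3 at 42.1 RPKM) but dark for BCL2A1 (0), and RELA is nearly even across all columns.

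Markers of other cell types were looked at because several called genes are known from leukocytes and endothelium. Of the 23 markers, 8 were measured and none was called. The 6 leukocyte markers together gave 0.679 to 0.723 RPKM in controls and 0.544 to 0.773 in knockdowns, with 2 of them at 0 in all 4 libraries. The 3 endothelial markers together gave at most 0.0319 RPKM in any of the 4 libraries, with 2 of them at 0. Leukocyte and endothelial markers were thus near 0 in controls and knockdowns. Fibroblast markers gave 22.6 to 28.8 RPKM in controls and 21.4 to 31.6 in knockdowns, and Schwann and glial markers 3.45 to 4.35 and 2.21 to 5.66. In these bulk libraries a change in a few cells and a smaller change in all cells cannot be told apart.

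The largest called differences outside the NF-kB list were those of OR2I1P and FDCSP. OR2I1P, an olfactory receptor gene of the HLA region, had 0.0651 RPKM in the batch 2 control, 69.1 with sh1 and 106 with sh2 (log2 difference 7.31, SE 0.25, adjusted p = 9.63e-07 with the block). It is listed at 0 in every batch 1 library, and against the batch 2 control alone the difference was 7.25 (SE 1.44) and did not pass (limma, adjusted p = 0.864). It overlaps UBD, an interferon- and TNF-inducible ubiquitin-like gene, on the opposite strand. UBD was also called, with 0 reads in both controls and 1.55 and 4.75 RPKM in knockdowns, but not against the batch 2 control alone (adjusted p = 0.956). Without a stated strand setting the reads of this pair cannot be told apart. FDCSP, a small secreted protein of follicular dendritic cells, had 0.115 and 0.218 RPKM in controls and 49.6 and 62.2 in knockdowns (log2 difference 6.44, SE 0.65, adjusted p = 0.00937 with the block). TNFAIP6, a hyaluronan-binding protein induced by TNF, had 0.0413 and 0 against 8.44 and 10.0, which rest on 1, 0, 505 and 447 reads. SERPINA5, a serine protease inhibitor, had 0.0694 and 0.230 against 4.95 and 9.22, EXOC3L4 0.0561 and 0.00887 against 5.76 and 2.84, and EBI3, a subunit of the cytokines IL-27 and IL-35, 0.203 and 0.0721 against 5.71 and 3.72. In each of these genes both knockdown libraries stood far above both controls. Smaller called rises included the prostaglandin synthase PTGES, the chemokine CXCL11, the cytokine IL34 and the ephrin EFNA1, named after their values were seen.

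Among antigen presentation genes, B2M rose. In the interferon-stimulated list 21 of 32 genes were measured, and 2 were called higher (0.175% of all genes), of which B2M is described here. The list median was 1.08, against -0.15 over all genes. At least 1 above both controls lay 8 genes (0.581% of all genes), 7 of them antigen presentation genes. Of the 21 genes, 4 are listed at 0 in every batch 1 library. Against the batch 2 control alone the count was also 8 (1.06% of all genes). B2M, the light chain of class I molecules, lies outside the HLA region and can be read against both controls. It had 34.9 and 43.2 RPKM in controls and 148 and 142 in knockdowns (log2 difference 1.75, SE 0.26, adjusted p = 0.0338 with the block). HLA-C, a class I heavy chain, had 16.8 RPKM in the batch 2 control and 97.2 and 52.0 in the knockdowns. TAP1, a peptide transporter, had 0.475 in the batch 2 control against 4.94 and 6.33 and did not pass (adjusted p = 0.0822 with the block). IFI6, an interferon effector, had 23.1 and 19.9 against 39.8 and 52.7. B2M was also high in the CASC15-003 libraries of day 7, at 96.7, 93.4 and 154 RPKM. Its difference between the knockdowns did not pass (log2 0.29, adjusted p = 0.547 with the block). IFI6 was at 33.8, 62.3 and 32.4 RPKM in the same libraries, and HLA-C at 73.2 and 70.7 in those of batch 2.

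Of the complement genes, C3 and C1S were called higher. Of 27 list genes 13 were measured, 2 were called higher (0.175% of all genes), C3 and the protease C1S of the classical pathway, and the median was -0.01. C1S had 0.927 and 0.609 RPKM in controls and 15.5 and 7.61 in knockdowns (log2 difference 3.23, SE 0.43, adjusted p = 0.0292 with the block). C7, a part of the membrane attack complex, had 30.2 and 27.7 against 62.7 with sh1 and 16.8 with sh2. CFI, the protease that cleaves C3b, had 16 and 7.84 against 45.7 and 2.26. The regulator CLU had 33.9 and 15.2 against 34.3 and 4.97. In these 3 genes the shRNAs fell on different sides of or within the controls.

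HEY1, a transcriptional repressor switched on by Notch, was lower with both shRNAs. Its RPKM was 19.4 in the batch 1 control, 27.4 in the batch 2 control, 6.00 with sh1 and 5.98 with sh2. Knockdown values lay well below controls, and it fell by 1.89 on the log2 scale (SE 0.20, adjusted p = 0.0110 with the block, 0.323 without, 0.00794 to 0.956 over the alternatives). HEY1 was at a like level in the 3 CASC15-003 libraries of day 7, 5.86, 6.85 and 5.93 RPKM. The difference between the knockdowns was -0.06 (SE 0.18, adjusted p = 0.894 with the block). At day 0 HEY1 was at 17.1 and 13.8 RPKM with CASC15-004 shRNAs and at 8.21 to 19.3 in controls, so the groups overlapped. Of the 33 genes of the Notch list 27 were measured, HEY1 was the one called, and the median was -0.03. The ligand JAG1 had 9.31 and 8.75 RPKM in controls and 5.17 and 6.83 in knockdowns, and the receptor NOTCH3 38.4 and 16.8 against 28.0 and 16.2. DLK1, a non-canonical ligand, was at 49.3 and 115 in controls but at 19.1 with sh1 and 391 with sh2.

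COL26A1, a collagen, was low at day 0 and high in the day 7 controls, and it was lower than those controls with both shRNAs. It had 0.187 to 0.598 RPKM in day 0 controls and 13.5 and 14.7 RPKM in the day 7 controls, against 3.17 with sh1 and 2.26 with sh2. It fell by 2.26 (SE 0.34, adjusted p = 0.0345 with the block, 0.188 without, 0.0267 to 0.851 over the alternatives). In the CASC15-003 libraries of day 7 it was at 15.2, 19.5 and 22.6 RPKM, and the difference between the knockdowns was -2.60 (SE 0.30) and called without the block (adjusted p = 0.0435) and with it (0.00816). Of 39 collagens 14 were measured, COL26A1 was the one called, and the list median was 0.04. COL3A1 had 221 and 149 RPKM in controls, 245 with sh1 and 60.7 with sh2. Of the 10 genes called lower, 2 were protein-coding, HEY1 and COL26A1. LINC01772 had 3.79 and 4.05 RPKM against 1.49 and 1.55, the pseudogene DSTNP1 7.00 and 7.03 against 3.06 and 3.19, and the antisense gene ENSG00000270110 6.90 and 3.88 against 1.66 and 1.34. All 3 overlap another gene on the opposite strand. Of the others, 2 are listed at 0 in both knockdown libraries. With no call, NCBP3 (18.2 and 18.7 against 12.4 and 11.2), RPL13P8 (10.5 and 14.5 against 4.76 and 6.39) and MINDY2 (5.74 and 7.20 against 2.63 and 2.92) are given as values only.

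The genes of the axis that the series names were not called: USP36 had 13.5 and 9.77 RPKM in controls and 11.9 and 8.32 in knockdowns, CHD7 19.1 and 16.3 against 13.2 and 20.3, and SOX9 41.5 and 13.5 against 93.6 and 27.4. In all 3 genes the groups overlapped, for SOX9 only through the batch 1 control. Against the batch 2 control SOX9 was higher with both shRNAs, by 2.75 with sh1 and 0.99 with sh2 on the log2 scale. Its difference from both controls kept its sign in all 26 alternatives. In spheres SOX9 was above the 1 control by 1.995 with sh1 and 2.288 with sh2, read without a test. For USP36 and CHD7 the shRNAs fell on different sides of the batch 2 control. No gene was called in the lists of retinoic acid handling (22 measured), adrenergic genes (21), mesenchymal state (23), neuronal differentiation (24), cell cycle (24), cholesterol synthesis (16), amino acid and ER stress (17), immediate early genes (23), secreted BMP, TGF-beta and Wnt factors (25) or matrix proteins (23). With 0.226% of all genes called, no call in a list of this size is near the background. Their medians ran from -0.59 (neuronal differentiation) to 0.46 (amino acid and ER stress). Of 14 reference genes B2M was called and the median was 0.34.

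sh1 and sh2 differed from each other, in the NF-kB list and in other gene groups. Over all genes their log2 difference had an SD of 0.67, against 0.44 between the same shRNAs at day 0 and 1.53 between the day 7 controls of batches 1 and 2. A difference of 2 or more was found for 176 genes higher with sh1 and 122 higher with sh2. With 1 library per shRNA none of this has a replicate check. Of the 38 NF-kB genes measured, 34 were higher with sh1 than with sh2. The gap was at least 1 for 11 genes higher with sh1 (7.09% of all genes) and for 0 higher with sh2 (4.14%). Of 13 complement genes, 6 were higher with sh1 by at least 1 and 0 with sh2. Adrenergic genes lay lower with sh1: of 21 measured, 14 were lower than with sh2 by at least 1 (4.14% of all genes) and 2 were higher (7.09%). The median against the batch 2 control was -1.29 for sh1 and 0.22 for sh2. CHGA, a secretory granule protein, had 111 and 102 RPKM in controls, 52.7 with sh1 and 1080.4 with sh2. DBH, which makes noradrenaline, had 247 and 167 in controls, 59.0 with sh1 and 565 with sh2. In both genes the controls lay between the shRNAs. Neuronal genes also lay lower with sh1: the median was -1.44 for sh1 and -0.37 for sh2, and STMN2, a growth cone protein, had 129 and 277 in controls, 50.8 with sh1 and 217 with sh2. Mesenchymal genes lay the other way, with a median of 1.12 for sh1 and 0.18 for sh2, and SPARC had 59.1 and 34.8 in controls, 146 with sh1 and 35.5 with sh2.

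CYP26A1, RET and CRABP2, which are known to respond to retinoic acid, were high in all 4 libraries except for CYP26A1 with sh2. CYP26A1, the enzyme that breaks down retinoic acid and is induced by it, was at or below 0.271 RPKM in all day 0 controls and at 221 and 225 in the day 7 controls. It was at 301 with sh1 and at 9.0 with sh2. CYP26A1 was not alone in being lower with sh2. Of the 22 genes measured in the retinoic acid list, 7 were higher with sh1 than with sh2 by at least 1 (7.09% of all genes). By the same measure 1 gene was higher with sh2 (4.14%). The receptor RET, a tyrosine kinase for GDNF-family ligands, was at 845 and 793 RPKM in the day 7 controls and at 568 and 532 with sh1 and sh2. CRABP2, the retinoic acid carrier, had 1256 and 1153 RPKM in controls and 1778 and 1755 in knockdowns.

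**Figure D4:**
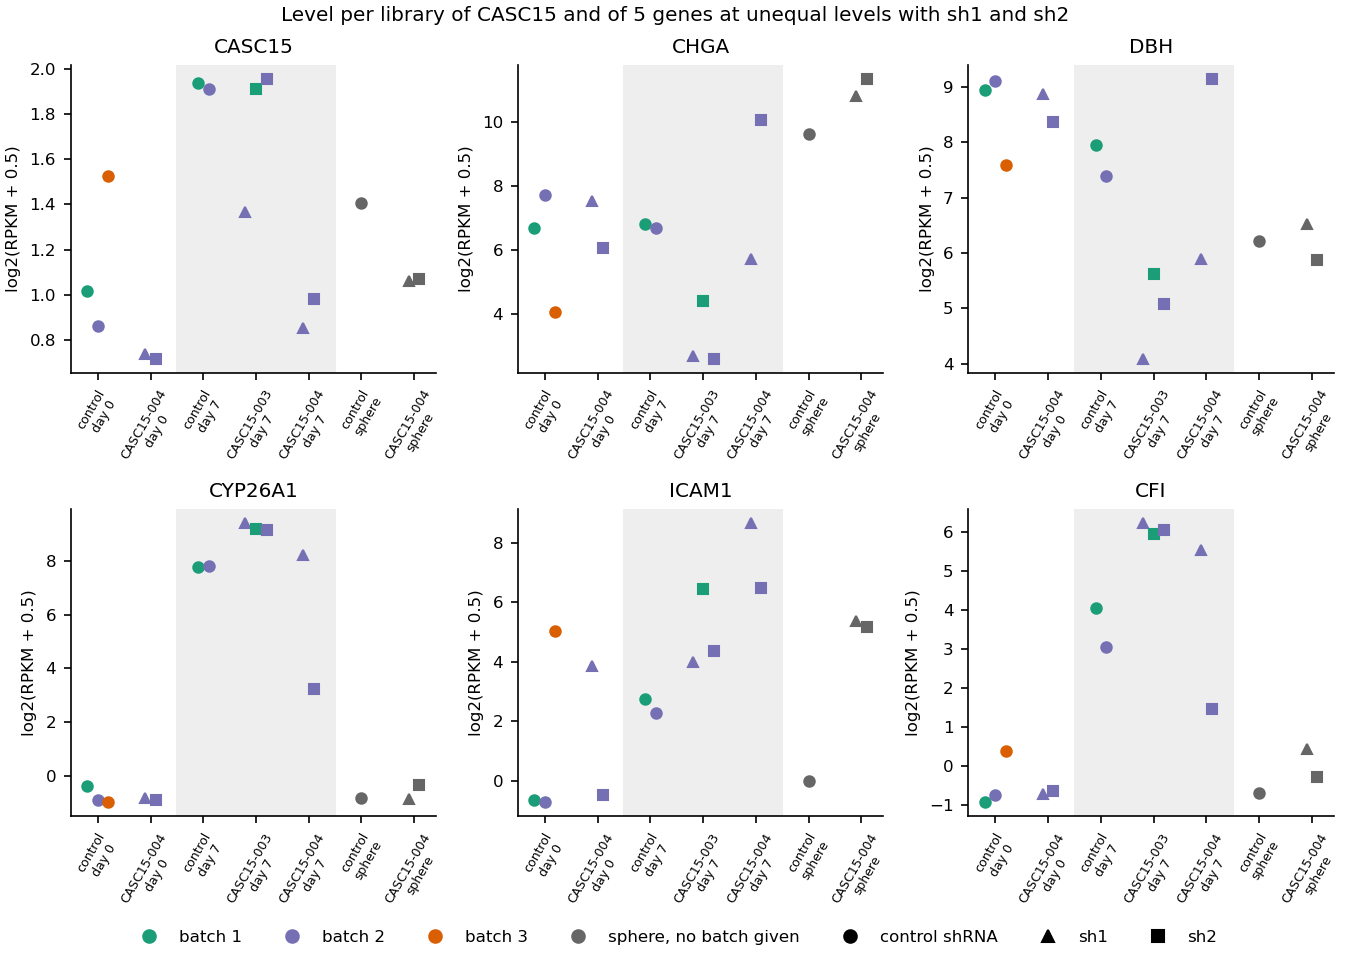
Levels, as log2(RPKM + 0.5), of CASC15, CHGA, DBH, CYP26A1, ICAM1 and CFI in single libraries, with symbols and colours as in the plot of the 6 marker genes. CASC15 is low with both shRNAs at day 7 (1.31 and 1.48 RPKM), whereas CYP26A1 is at 301 RPKM with sh1 and 9.0 with sh2.

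**Figure D5:**
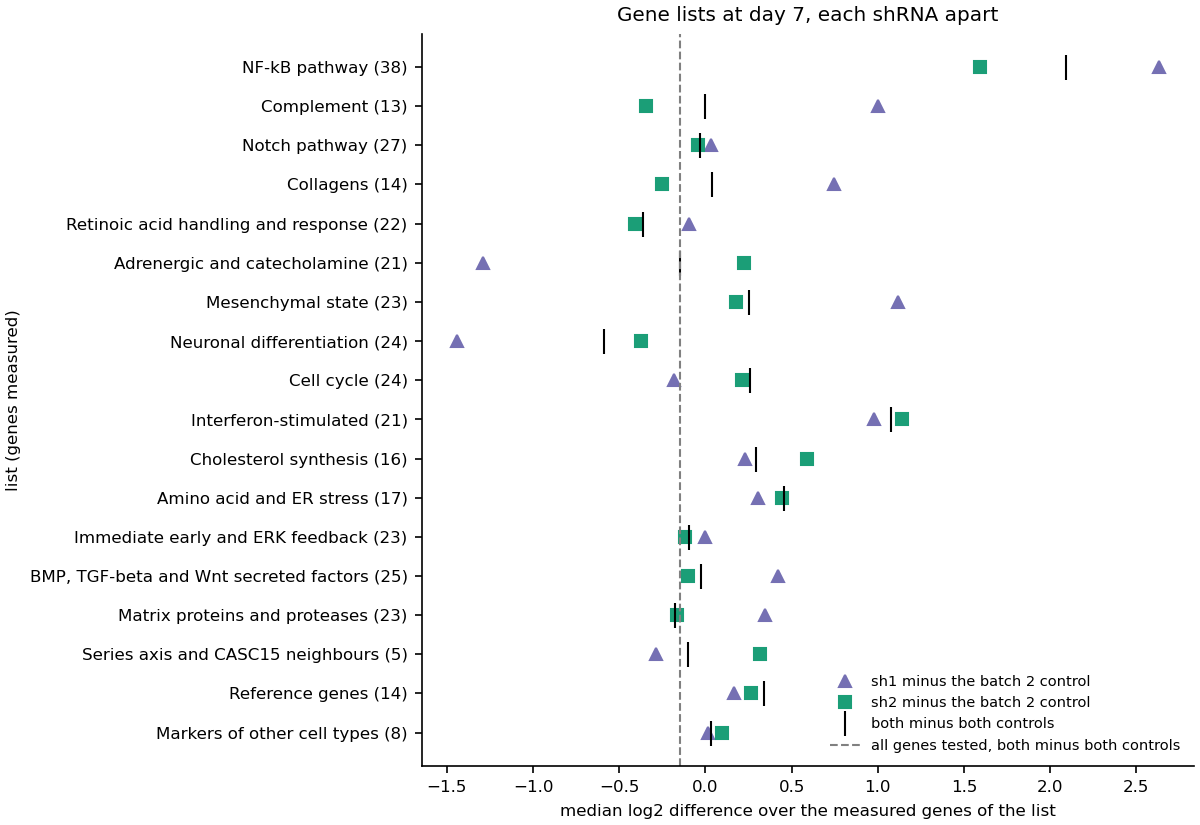
Median log2 difference over the measured genes of each list shown (their number in brackets) for sh1 and for sh2 against the batch 2 control, which both share, and for both against both controls; the dashed line is the median of all genes tested, -0.15. The NF-kB list stands at 2.63 and 1.59, while the adrenergic list is at -1.29 with sh1 and 0.22 with sh2.

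Set against the CASC15-003 knockdown of day 7, the CASC15-004 knockdown differed in 4 genes without the block (0.0206% of those tested), 1 higher (0.00514%) and 3 lower (0.0154%). BCL2A1 was higher, by 3.92 (SE 0.50, adjusted p = 0.0435). It was at 15.8 and 3.67 RPKM with CASC15-004 at day 7 and at or below 0.219 in all other monolayer libraries. BCL2A1 thus entered the test only through the group where it is high, so this call is no separate support. Lower were COL26A1, ST8SIA6, a sialyltransferase (1.38 and 0.336 RPKM against 7.40, 13.6 and 11.4), and PLAGL1, a zinc finger protein (2.0 and 1.70 against 7.81, 5.45 and 7.48). With the block 139 genes were called (0.714%), 69 higher (0.355%) and 70 lower (0.36%). They included 15 of the 38 NF-kB genes, all higher. Leaving out 1 library moved these counts. Without the block the count was 343 without CASC15-004 sh1 and 1 without sh2, 55 without CASC15-003 sh1 of batch 2, 3 without sh2 of batch 1 and 0 without sh2 of batch 2. With the block it was 2271 without CASC15-004 sh1, 64 without sh2 and 36 without either day 7 control.

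The knockdown difference was also tested for a change from day 0 to day 7. Without the block no gene passed (284 at an unadjusted p under 0.05, limma, 115 larger at day 7, 0.591%, and 169 smaller, 0.868%). With the block VCAM1 and OR2I1P passed (0.0103%), though OR2I1P is listed at 0 in every batch 1 library. With voom and the block no gene did (753 at an unadjusted p under 0.05). At day 0 VCAM1 had 0.101 RPKM with sh1 and 0.00456 with sh2, against 0, 0.0208 and 1.16 in the controls of batches 1, 2 and 3. Its difference was 4.08 larger at day 7 (SE 0.26, adjusted p = 0.000237 with the block). TNFAIP3, at 1.95 RPKM with sh1 and 0.104 with sh2 at day 0, did not pass (adjusted p = 0.994 with the block).

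In spheres, a culture with other libraries but the same shRNAs, the called genes were read again without a test, since there is 1 control. Of the 34 genes called higher at day 7, 33 were above the control in both CASC15-004 spheres, against 26.7% of all genes. For 30 of the 34 both lay above it by at least 1, against 3.32%. VCAM1 had 1.49 RPKM in the control sphere, 12.7 with sh1 and 9.18 with sh2, and C3 0.241 against 18.9 and 17.3. LCN2 was listed at 0 in the control sphere and had 1.25 and 5.71 RPKM, and TNFAIP3 had 0.0410 against 4.08 and 2.61. HEY1 had 50.1 in the control sphere against 5.85 and 11.5, and COL26A1 21.5 against 3.44 and 4.09. Of the 10 genes called lower, 8 had reads in the spheres, 6 were below the control in both (44.7% of all genes) and 3 of them by at least 1 (3.92%). The NF-kB mean was 1.10 in the control sphere and 3.97 and 3.91 in the CASC15-004 spheres, but also 2.92 in the CASC15-003 sh1 sphere, with 1.07 for its sh2.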

How the data were processed

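Total RNA depleted of ribosomal RNA was sequenced with a stranded kit, per the labels' protocols. The deposited values are RPKM for 63677 genes, made by the authors on hg19 with TopHat, Subread and featureCounts, per the submitters' processing notes, with no versions given. RPKM times gene length gave back read counts (100% of values within 0.01 of a whole number). In the sphere table read totals rotate over genes with a period of 10, so sphere RPKM was recomputed with each library's own total. Symbols came from the reference gene tables (11151 genes had none).

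Genes at RPKM 1 or above in 2 of the 15 monolayer libraries were kept, and log2(RPKM + 0.5) was modelled in limma 3.58.1 (R 4.3.3), with 1 spread for all 6 groups (9 residual degrees of freedom, 7 with the block). The procedure was tested on simulated data with normal noise, with differences set only in well-expressed genes. That simulation does not cover genes near 0 in the controls, such as VCAM1. Titles number the batches. Control and CASC15-003 libraries of the same batch deviated together from their group means (r 0.716 to 0.942 over 16 pairs, -0.920 to 0.744 over 29 pairs of other batches), so batch was used as a block beside the fit without it. Alternatives changed the pseudocount, filter, scaling, libraries or test. A pair of CASC15-003 libraries has tags that contradict their titles and was kept by title.

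Named genes were the 6 marker genes, those with the largest difference among called genes of mean RPKM 2 or more and non-overlapping groups (at most 12 a direction, filled to 8 by smallest p without the block), CASC15, USP36, CHD7 and SOX9, called list members and up to 4 abundant ones per list. Others were chosen after their values were seen. Members and lists were chosen with earlier results of these data known. Results for a few genes are not reported here.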

Additional observations from a re-analysis of the deposited data

Results flagged for a closer look

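For 2 genes the difference between CASC15-004 and control itself changed between day 0 and day 7, by a test of that change with the batch block. VCAM1 differed by 4.08 more at day 7 on the log2 scale (SE 0.26, limma, adjusted p = 0.000237), and without the block by 4.63 (adjusted p = 1.000). OR2I1P differed by 7.23 more (SE 0.33, limma, adjusted p = 1.55e-05), and without the block by 8.28 (limma, adjusted p = 0.9999). It is listed at 0 in every batch 1 library, and both of these fits include those libraries. In batch 2 alone the change was 7.06 for OR2I1P and 3.98 for VCAM1. The reads of OR2I1P cannot be told apart from those of UBD on the opposite strand. Without the batch 3 libraries the change with the block was 4.06 for VCAM1 (limma, adjusted p = 0.00133) and 7.15 for OR2I1P (adjusted p = 6.13e-05). With voom and the block neither passed (adjusted p = 0.999 for VCAM1 and 0.770 for OR2I1P).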

How the results depend on the processing

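Each result was recomputed with 1 choice changed at a time, or with 2 where the block is joined to another change. The 28 named genes called with the replicate block kept their direction in all 26 alternatives (25 for LCN2, BCL2A1, UBD and CXCL11, which the stricter filter drops). Their day 7 knockdown values all lay on 1 side of the controls, so this was largely fixed by the choice of genes. Of the 49 named genes not called, 21 took the other sign in at least 1 alternative, so no direction is given for those. Without the block, 0 genes differed between CASC15-004 and control, and 0 to 4 with 1 library left out. The count was 44 with the replicate block, 55 with the block and median-ratio scaling, 6 with voom and the block, 69 with no filter and 31 in batch 2 alone (of which 26 were lower and listed at 0 in both knockdowns). Of the alternatives chosen after seeing the data, the block gave 6 and 2 without the batch 1 or batch 2 control and 195 and 164 without sh1 or sh2, leaving out batch 1 gave 29 (28 with the block) and leaving out batch 3 gave 10 (43 with the block). Against CASC15-003 the 4 genes became 0 at pseudocount 0.1, with the stricter filter and with either scaling, 8 at pseudocount 1, 45 with no filter, 2 with those groups alone, 23 without the pair of contradictory tags and 0 to 343 with 1 library left out. They became 139 with the replicate block, 143 with median-ratio scaling too, 55 with voom and the block, 36 with the block and without either control, 2271 and 64 without CASC15-004 sh1 or sh2, 9 without batch 1 (9 with the block) and 15 without batch 3 (123 with the block). For the change from day 0 to day 7 the count of 0 became 2 with the replicate block with or without median-ratio scaling, stayed 0 with voom and the block, 19 with no filter, 25 in batch 2 alone, 22 without batch 1 (17 with the block), 2 without batch 3 (3 with the block), 0 to 1 with 1 library left out and 2 to 8 with the block as well. The causes of these shifts were not tested. Precision is limited by 2 libraries per group, 1 per shRNA, and by low reads in controls.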
